A study of Mus musculus with 8 samples.

Results

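The collagen genes were read in layers II-IV of the mouse neocortex at postnatal day 5, in 4 pups with Bcl6 targeted in excitatory neurons and 4 control pups. A gene was counted as a collagen when a probe set named it alone and its symbol was Col, digits, the letter a and digits. This rule gave 44 of the 19938 genes tested, from 46 probe sets, and for Col6a5 and Col6a6, which had more than 1, the probe set of highest mean was kept. All 44 genes that fit the symbol rule in the GRCm38.p6 gene table had such a probe set. No filter on low values was applied, so all 44 were tested.

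The mutant pups carried Bcl6 flox/flox with 1 Cre allele in the Nex locus (Nex Cre/+), and the control pups carried Bcl6 flox/flox without Cre (Nex +/+). All 8 pups thus carried the floxed Bcl6 alleles. Nex is another name of Neurod6, a gene of postmitotic excitatory cortical neurons, so the cells of vessels and meninges are not where that Cre is known to be made. Total RNA came from laser-microdissected tissue, with 1 Affymetrix Mouse Gene 1.0 ST array per pup. In such bulk tissue, fewer cells of a type and less RNA per cell cannot be told apart.

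Collagens are triple-helical proteins wound from 3 chains, like or unlike, and each kind of chain is the product of a gene of its own. Fibrillar collagens, such as types I and III, form the banded fibres of connective tissue, which in the brain are found in the meninges and around larger vessels. Type IV chains form the sheet-like network of basement membranes, which every brain capillary and the surface of the cortex rest on. Other collagens attach to fibrils (the FACIT group), form beaded filaments (type VI), line cells as short-chain networks (types VIII and X) or cross the plasma membrane. Endothelial cells, pericytes and fibroblasts are the main sources in the brain, while a few, such as the transmembrane chain Col25a1, are known from neurons.

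The Col4a1 and Col4a2 chains join in 1 triple helix, and their genes lie head to head on opposite strands. Their promoter windows, 300 bases around each annotated start (RefSeq, GRCm38.p6), are shown because these windows overlap. Capitals mark the 78 bases they share, read on the strand of each gene. The Col1a2 window follows because this fibrillar chain was among the most variable collagens here, and capitals mark its CCAAT motifs, read as CCAAT or, on the other strand, ATTGG.
Col4a1, chr8:11312777-11313076, minus strand: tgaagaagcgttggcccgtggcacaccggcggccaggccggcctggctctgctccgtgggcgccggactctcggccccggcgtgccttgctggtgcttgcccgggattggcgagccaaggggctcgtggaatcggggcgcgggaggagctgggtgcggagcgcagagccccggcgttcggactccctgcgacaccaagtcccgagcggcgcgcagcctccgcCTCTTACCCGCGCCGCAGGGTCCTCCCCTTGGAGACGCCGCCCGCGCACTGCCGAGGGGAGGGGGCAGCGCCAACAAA
Col4a2, chr8:11312555-11312854, plus strand: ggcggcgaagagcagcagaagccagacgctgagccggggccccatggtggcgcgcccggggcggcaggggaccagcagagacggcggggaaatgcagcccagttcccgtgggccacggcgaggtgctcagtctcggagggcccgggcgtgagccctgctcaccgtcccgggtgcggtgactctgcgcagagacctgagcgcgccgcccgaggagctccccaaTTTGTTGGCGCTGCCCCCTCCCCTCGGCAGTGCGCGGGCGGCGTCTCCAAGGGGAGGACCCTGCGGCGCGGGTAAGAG
Col1a2, chr6:4505368-4505667, plus strand: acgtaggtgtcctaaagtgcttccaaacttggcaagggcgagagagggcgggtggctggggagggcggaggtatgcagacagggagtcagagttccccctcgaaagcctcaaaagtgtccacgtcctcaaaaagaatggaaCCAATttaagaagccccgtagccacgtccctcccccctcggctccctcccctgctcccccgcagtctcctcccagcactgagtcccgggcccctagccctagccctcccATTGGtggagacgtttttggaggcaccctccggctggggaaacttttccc

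The promoter table held windows for 35 of the 44 collagens. CCAAT on either strand was present 1 time in the Col4a1 window, 1 time in the Col4a2 window and 2 times in the Col1a2 window, and it was found in 37.4% of the 32851 windows of all genes. GGGCGG, read also as CCGCCC, occurred 1, 3 and 2 times in these windows and in 35.7% of all windows. No CCAAT match overlapped a GGGCGG match in the 3 windows. The bases G and C made up 74.0% of the Col4a1 window, 73.7% of the Col4a2 window and 61.0% of the Col1a2 window. The windows of Col4a5 and Col4a6, the pair on the X chromosome that also faces opposite ways, share 0 bases and lie 842 bases apart.

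The arrays were alike in scale, with medians over all probe sets between 4.94 and 5.01 (log2) and correlations between arrays from 0.9904 to 0.9939. Bcl6 itself read higher in all 4 mutants than in all 4 controls, at 6.78 ± 0.14 in mutants and 6.40 ± 0.18 in controls (SD, n = 4 each), a difference of 0.37 (limma unadjusted p = 0.0024, adjusted p = 0.655). Neurod6, whose locus carries Cre in mutants, was lower in all 4 mutants than in all 4 controls, with means of 8.83 in mutants and 9.22 in controls (-0.39, limma unadjusted p = 0.0012, adjusted p = 0.535). Neurod6 thus ran in the direction of the labels and Bcl6 did not. Where the Bcl6 probes lie relative to the deleted exons was not analysed here, and "mutant" stands for the label of an array. The level of Xist, which silences an X chromosome in females, was 9.78 in mutant replicate 1 and 9.76 in replicate 4, with 3.26 and 2.82 in the other mutants and 2.64 to 3.41 in all controls. Markers of upper-layer neurons were present, with Rorb at a mean of 10.21 and Cux2 at 8.78 over the 8 arrays. Dcn, Lum and Ogn, which mark fibroblasts of the meninges, read 3.39, 2.22 and 2.54. These 3 were among the dimmer of the 18 markers of fibroblasts and meninges, whose mean levels ran from 2.22 to 7.06 (median 4.24). Detection calls were not used here, and readings of different probe sets are not compared as amounts.

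No collagen passed the test between genotypes. By limma with Benjamini-Hochberg adjustment over 19938 genes, 0 were called, against 0.0652% of all genes, and every collagen had an adjusted p of 0.9995. At an unadjusted p under 0.05 there were again 0 of 44, against 4.91% of all genes (1.64% higher and 3.28% lower). Mutant and control arrays overlapped in all 44 collagens, whereas they did not overlap in 2.75% of all genes (0.963% with mutants higher and 1.79% with mutants lower).

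The intervals give a range for the difference in array readings of each gene. The median level was 5.52 over the collagens and 5.55 over all genes. How closely such readings follow transcript amounts was not tested. All 44 intervals of 95% held 0 and lay within 0.5 of it on the log2 scale. The lowest bound was -0.49 for Col8a1, which corresponds to 1.41-fold more in controls, and the highest was 0.26 for Col9a3, or 1.20-fold more in mutants. These limits apply to each gene alone and were not widened for the number of genes.

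**Figure D1:**
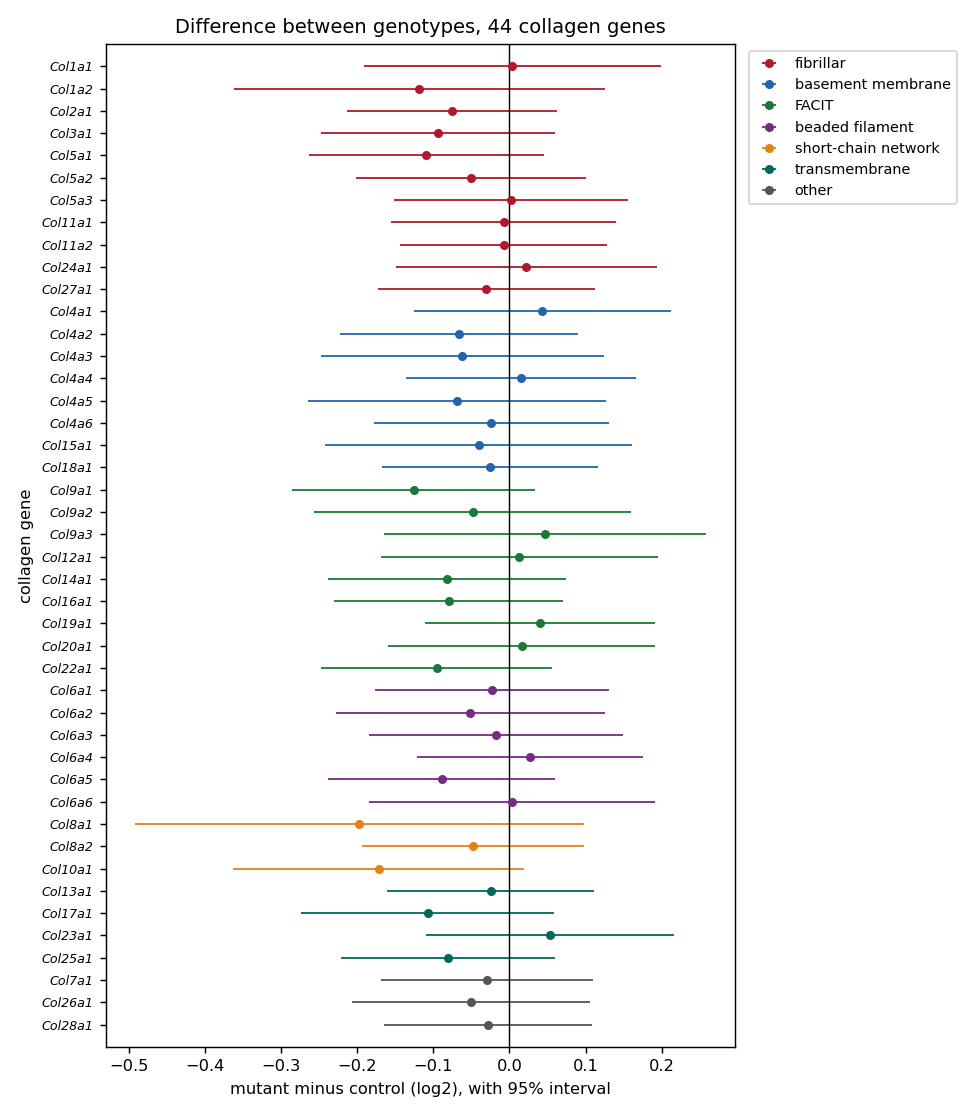
The 44 collagen genes (y axis) with their log2 difference, mutant minus control, on the x axis; each has a point for limma's estimate, a bar for its 95% interval and colours for the collagen class. Every bar crosses 0, and the short-chain network genes Col8a1 and Col10a1 lie farthest to the left, at -0.20 and -0.17.

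The differences were small, from -0.20 to 0.05, with a median of -0.04 over the collagens and -0.01 over all genes. They were negative in 32 of 44 collagens, or 72.7%, beside 55.4% of all genes. That count depended on single arrays and on scaling. Leaving out 1 array gave counts from 28, without mutant replicate 1, to 39, without control replicate 3. It was 28, 30 and 28 after quantile normalization, median centring and cyclic loess, 26 with the Y-linked level as a covariate and 24 without mutant replicates 1 and 4.

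Fibrillar and basement membrane collagens had medians of like size. The median difference of the 11 fibrillar genes was -0.03, with 8 of 11 below 0. That of the 8 basement membrane genes was also -0.03, with 6 of 8 below 0. Of all genes, 55.4% were below 0. After quantile normalization, median centring and cyclic loess, 6 of 11 fibrillar genes were below 0 each time. For basement membrane genes these counts were 5, 6 and 5 of 8. The mean log2 reading of the fibrillar genes minus that of the basement membrane genes, taken within each array, was 0.20 ± 0.05 in mutants and 0.21 ± 0.04 in controls (SD, n = 4 each). The size of this value depends on the probe sets, and between genotypes it differed by less than the spread between arrays. No p-value is given for these sums over members.

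Type I collagen is the main fibre-forming collagen, a heterotrimer of Col1a1 and Col1a2 chains. Col1a1 read 6.02, 5.89, 5.88 and 6.01 in mutant replicates 1 to 4, against 6.18, 5.85, 5.77 and 5.99 in control replicates 1 to 4. The groups overlapped fully, and control replicate 1 was the highest of the 8. The difference was 0.00 ± 0.09 (SE), and its sign turned in 6 of 18 alternative fits, for instance to -0.06 with the Y-linked level as a covariate.

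Col1a2 read 5.52, 5.55, 5.75 and 5.43 in mutants, against 5.999, 5.50, 5.49 and 5.75 in controls. Control replicate 1 again stood highest, while the other 3 controls lay inside the mutant range. The difference was -0.12 ± 0.11 (95% interval -0.36 to 0.13) and was -0.01 without control replicate 1, -0.073 without mutant replicate 4 and -0.18 without mutant replicate 3, control replicate 2 or control replicate 3. Without mutant replicates 1 and 4 it was -0.03. Col1a2 was among the 5 collagens of largest spread within genotypes (SD 0.20).

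Col3a1, which forms the thin fibres of vessel walls, read 5.23, 5.37, 5.19 and 5.33 in mutants, against 5.46, 5.26, 5.35 and 5.42 in controls. The 2 lowest values were mutant and the 2 highest control, with overlap between them. The difference was -0.09 ± 0.07 (-0.25 to 0.06).

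Col5a1, a minor fibrillar chain that starts fibre assembly, read 5.31, 5.49, 5.45 and 5.53 in mutants, against 5.56, 5.61, 5.44 and 5.61 in controls. It had the smallest p of the fibrillar genes, with a difference of -0.11 ± 0.07 (limma unadjusted p = 0.149, adjusted p = 0.9995). One control array lay below 3 of the mutants, and without mutant replicate 1 the difference was -0.065.

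The other 7 fibrillar genes had unadjusted p-values above that of Col3a1. Col2a1, the cartilage collagen, read -0.08 ± 0.06 (SE of the difference), and Col5a2 read -0.05 ± 0.07. Col27a1 differed by -0.03 ± 0.07, Col24a1 by 0.02 ± 0.08, and Col5a3, Col11a1 and Col11a2 by 0.00, -0.01 and -0.01. Col11a2 and Col2a1 were also among the steadiest genes of the family, with SDs within genotypes of 0.05 and 0.06.

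Among basement membrane collagens, Col4a1 and Col4a2 form the network found in all vessel walls. Col4a1 read 6.45, 6.35, 6.56 and 6.39 in mutants, against 6.35, 6.57, 6.28 and 6.38 in controls. The highest and the lowest of the 8 values were both controls. The difference was 0.04 ± 0.08 (-0.13 to 0.21).

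Its partner Col4a2 read 6.52, 6.31, 6.51 and 6.46 in mutants, against 6.57, 6.58, 6.51 and 6.40 in controls. The difference of -0.07 ± 0.07 (-0.22 to 0.09) was of the opposite sign to that of Col4a1, and both intervals held 0. The lowest array for Col4a2 was mutant replicate 2, without which the difference was -0.019, while without control replicate 4 it was -0.105. For Col4a1 it was 0.0037 without mutant replicate 3, 0.0037 without control replicate 3, and 0.072 and 0.101 without mutant replicate 2 and control replicate 2.

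The other type IV chains belong to more specialised basement membranes, such as those of kidney and ear. Col4a3 and Col4a4 differed by -0.06 ± 0.09 and 0.02 ± 0.07, and the X-linked Col4a5 and Col4a6 by -0.07 ± 0.09 and -0.02 ± 0.07. Col15a1 and Col18a1, proteoglycan collagens of the basement membrane zone, differed by -0.04 ± 0.09 and -0.03 ± 0.07. The Col18a1 product holds endostatin, a fragment that acts against vessel growth. Col15a1 was among the 5 most variable collagens (SD within genotypes 0.15), from 4.88 to 5.32 in mutants and from 5.03 to 5.27 in controls.

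**Figure D2:**
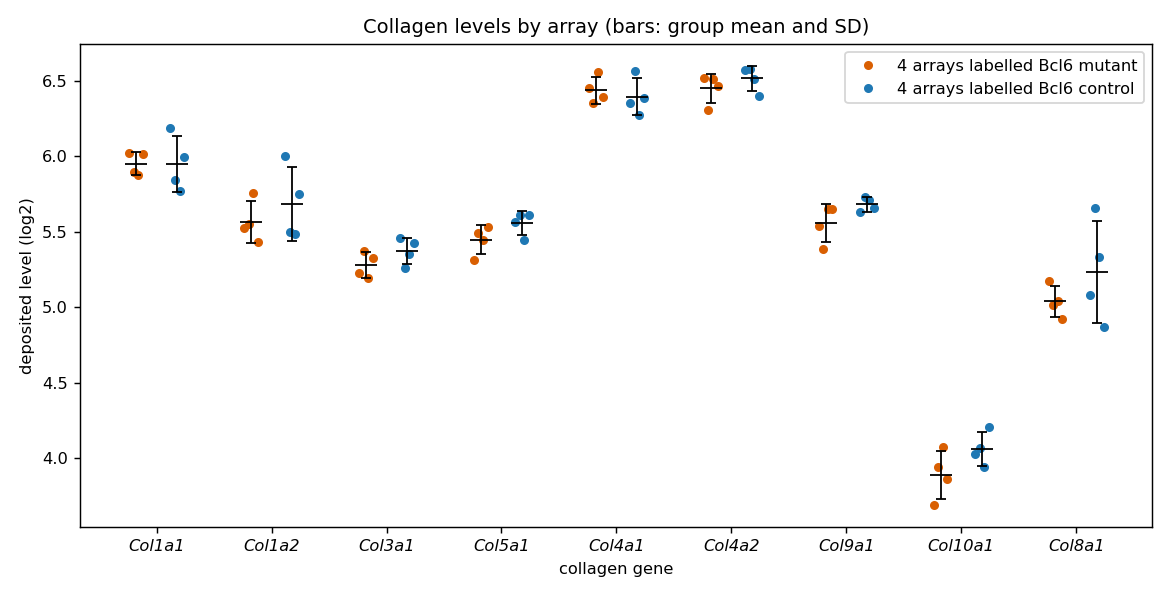
Deposited levels (y axis, log2) of 9 collagen genes (x axis), where points are single arrays, 4 labelled mutant (left of each pair) and 4 labelled control (right), and bars for group mean and SD. Groups overlap in all 9 genes, and control replicate 1 is the top point of Col1a1, Col1a2 and Col3a1, at 6.18, 5.999 and 5.46.

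The short-chain network genes held the largest differences of the family. Col8a1, found in vessel walls and in the eye, read 5.17, 5.02, 5.04 and 4.92 in mutants, against 5.08, 5.66, 5.33 and 4.87 in controls. Control replicate 2 stood above all other arrays and control replicate 4 below all, so the control SD of 0.34 was wider than the mutant SD of 0.11. The difference was -0.20 ± 0.14, with -0.06 without control replicate 2 and -0.32 without control replicate 4.

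Col10a1, a collagen of growing cartilage, read 3.69, 3.94, 4.07 and 3.86 in mutants, against 4.03, 4.07, 3.94 and 4.21 in controls. It had the smallest p of all 44 collagens, with a difference of -0.17 ± 0.09 (limma unadjusted p = 0.0742, adjusted p = 0.9995). Mutant replicate 1 was the lowest array, and the difference was -0.105 without it and -0.06 without mutant replicates 1 and 4. Col8a2 differed by -0.05 ± 0.07.

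FACIT collagens sit on the surface of fibrils. Col9a1 read 5.53, 5.39, 5.65 and 5.65 in mutants, against 5.63, 5.73, 5.71 and 5.66 in controls, a difference of -0.13 ± 0.07 (limma unadjusted p = 0.112), and -0.069 without mutant replicate 2, the lowest array. Its partner chain Col9a2 read 6.24, 6.67, 6.42 and 6.38 in mutants, against 6.64, 6.44, 6.50 and 6.33 in controls (-0.05 ± 0.10). The third chain, Col9a3, read 6.12, 6.40, 6.28 and 6.27 in mutants, against 6.46, 6.25, 5.99 and 6.18 in controls (0.05 ± 0.10). The 3 chains of this heterotrimer thus gave differences of both signs, and Col9a2 and Col9a3 were among the 5 most variable collagens.

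Col19a1, known from interneurons, read 5.05, 5.19, 5.12 and 5.07 in mutants, against 4.99, 5.21, 5.07 and 5.00 in controls, a difference of 0.04 ± 0.07 that ranged from 0.014 to 0.087 when 1 array was left out (without mutant replicate 2 and control replicate 2). The remaining FACIT genes Col12a1, Col14a1, Col16a1, Col20a1 and Col22a1 differed by 0.01, -0.08, -0.08, 0.02 and -0.10, each with an SE of 0.07 to 0.08. In none of these did the groups part.

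Type VI collagen forms beaded filaments around cells. Its Col6a1, Col6a2 and Col6a3 chains differed by -0.02 ± 0.07, -0.05 ± 0.08 and -0.02 ± 0.08, and Col6a4 and Col6a5 by 0.03 ± 0.07 and -0.09 ± 0.07. Col6a6 read 6.55, 6.67, 6.79 and 6.65 in mutants, against 6.86, 6.71, 6.49 and 6.59 in controls, a difference of 0.00 ± 0.09.

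The second probe set of Col6a6 behaved otherwise. It read 4.44, 4.49, 4.49 and 4.29 in mutants, against 4.15, 4.21, 4.25 and 4.21 in controls. All 4 mutants thus lay above all 4 controls, as they did in 0.963% of all genes. With every probe set that names 1 gene as a row of its own, its difference was 0.22 ± 0.07 (limma unadjusted p = 0.0067, adjusted p = 0.834 over 21789 rows). Neither of the 2 rows passed the threshold, and the exons each covers were not analysed here. This probe set was singled out after its values were seen. For Col6a5 the second probe set differed by -0.18 ± 0.08, in the direction of the one used.

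Transmembrane collagens include chains made by neurons. Col23a1 read 5.86, 6.05, 5.83 and 5.80 in mutants, against 5.82, 5.94, 5.72 and 5.83 in controls (0.05 ± 0.07). Col25a1, whose product is found in amyloid plaques and acts in motor innervation, differed by -0.08 ± 0.06, from 5.32 to 5.38 in mutants and from 5.36 to 5.56 in controls. Col13a1, a collagen of neuromuscular junctions, and Col17a1, of skin hemidesmosomes, differed by -0.02 ± 0.06 and -0.11 ± 0.08. Of the remaining genes, Col7a1, of the anchoring fibrils of skin, and Col28a1 both differed by -0.03 ± 0.06. Col26a1 read 6.17, 6.24, 6.46 and 6.30 in mutants, against 6.34, 6.37, 6.31 and 6.35 in controls (-0.05 ± 0.07).

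The collagen readings varied little from pup to pup. Detection calls were not used, so small SDs need not mean steady transcript amounts. The SD within genotypes had a median of 0.09 over collagens and 0.11 over all genes, and in 31 of 44 collagens it was under the latter. All 8 arrays spanned less than 0.5 in 41 of 44 collagens, with a median span of 0.29. Col28a1 had the narrowest span, 0.13, and Col8a1 the widest, 0.79.

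What variation there was fell unevenly on the arrays. Mutant replicate 1 held the lowest value of the 8 arrays in 18 of 44 collagens (40.9%), although it was lowest in 14.7% of all genes. Among the fibrillar genes it was lowest in 7 of 11, and among basement membrane genes in 1 of 8. Control replicate 1 was highest in 14 collagens (31.8%), beside 12.8% of all genes. After quantile normalization these counts were 15 and 13. The mean over the 44 collagens was 5.40 in mutant replicate 1, 5.47 to 5.50 in the other mutants and 5.44 to 5.55 in the controls.

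**Figure D3:**
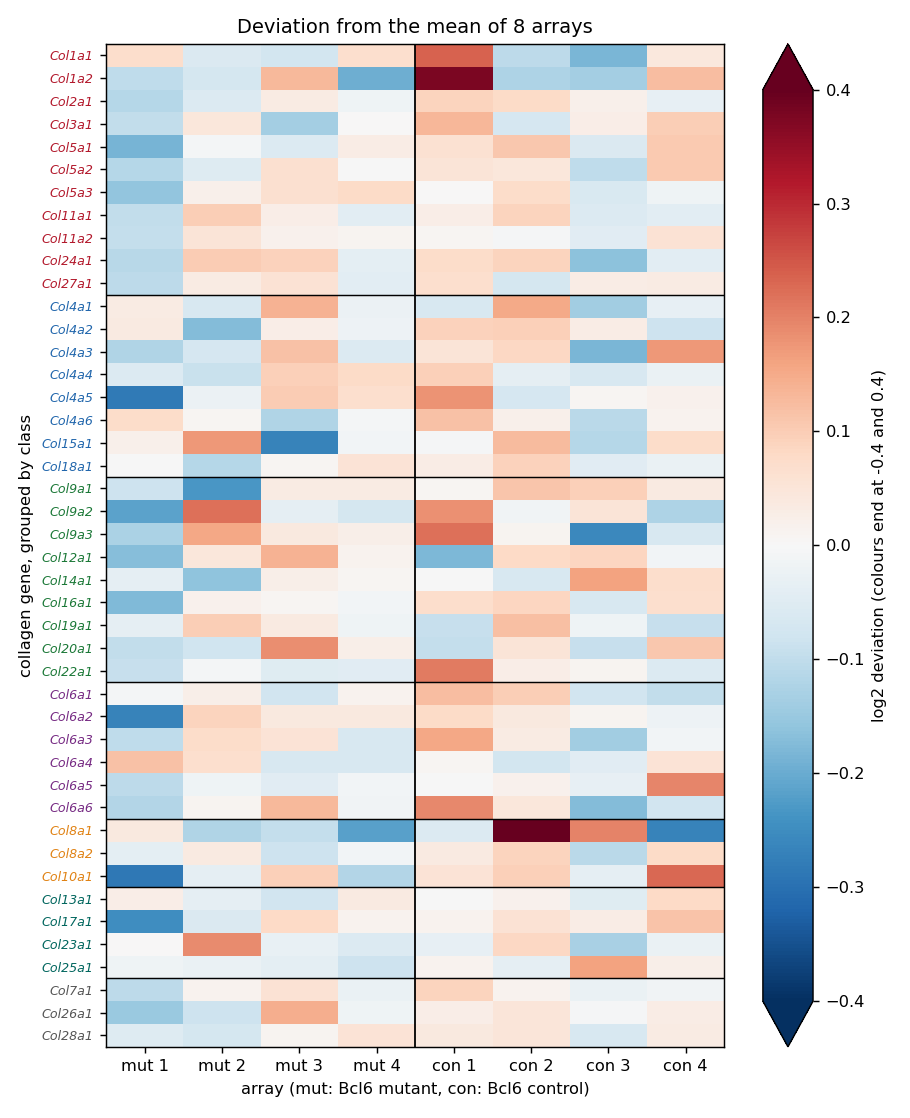
Deviation of each collagen gene (rows, grouped by class with label colours as in the plot of differences) from its mean over the 8 arrays (columns, mutant left of control), on the log2 scale from -0.4 (blue) to 0.4 (red). Mutant replicate 1 is blue in most fibrillar rows, control replicate 1 is darkest red in Col1a2, and Col8a1 in control replicate 2 lies past the colour range.

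Markers of the cell types that make collagen were set beside these values. Of 18 markers of fibroblasts and meninges, 11 were highest in control replicate 1, or 61.1%. Dcn, a small proteoglycan that binds collagen fibrils, read 3.32, 3.08, 3.34 and 2.72 in mutants, against 4.61, 3.31, 3.20 and 3.54 in controls. Igf2, a growth factor of the meninges, read 6.49, 6.12, 6.47 and 6.01 in mutants, against 6.95, 6.11, 6.24 and 6.48 in controls. The array with the highest Col1a1, Col1a2 and Col3a1 was thus also the highest for 11 of 18 markers, Dcn and Igf2 among them. It was the lowest for 1 of the 18. The part of meningeal tissue in the collagen values was not tested.

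The median difference of the 18 markers was -0.09, with 16 of 18 below 0, beside 55.4% of all genes. By limma 0 were called, beside 0.0652% of all genes. At an unadjusted p under 0.05, 1 was higher and 2 were lower, beside 1.64% and 3.28% of all genes. Summed on the linear scale the 18 markers ranged from 520 to 571 in mutants and from 536 to 658 in controls. None read 0, and the lowest mean was that of Lum, at 2.22. Without control replicate 1 the median was -0.02 and 13 of 18 were below 0. The markers of smallest p were Foxc1, Islr and Dcn, with limma adjusted p of 0.844 to 0.9995. Foxc1, a transcription factor of meningeal cells, differed by 0.24 ± 0.08, Islr by -0.28 ± 0.09 and Dcn by -0.55 ± 0.25. For Foxc1 all mutants lay above all controls, as they did in 0.963% of all genes.

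Endothelial and mural markers took another course. Mutant replicate 2 was the lowest array in 7 of 13 endothelial and 7 of 11 mural markers, while control replicate 1 was highest in 0 of either list. Their median differences were 0.02 and 0.01, and 0.0016 and -0.019 without mutant replicate 1. In each list 0 were called by limma, beside 0.0652% of all genes. At an unadjusted p under 0.05 there were 0 in each list, beside 4.91% of all genes. The endothelial sums ranged from 1361 to 1600 in mutants and from 1406 to 1566 in controls, and the mural sums from 666 to 819 in mutants and from 721 to 778 in controls. The markers of smallest p were Flt1 (0.14 ± 0.08), Slc2a1 (0.11 ± 0.07) and Tek (0.09 ± 0.10) in endothelium. In mural cells they were Pdgfrb (0.14 ± 0.08), Vtn (-0.15 ± 0.09) and Abcc9 (0.13 ± 0.11). Mutant replicate 1, the array most often lowest for collagens, was lowest for 0 markers of either list. Among the 18 markers of fibroblasts and meninges it was lowest for 3 (16.7%), beside 14.7% of all genes.

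**Figure D4:**
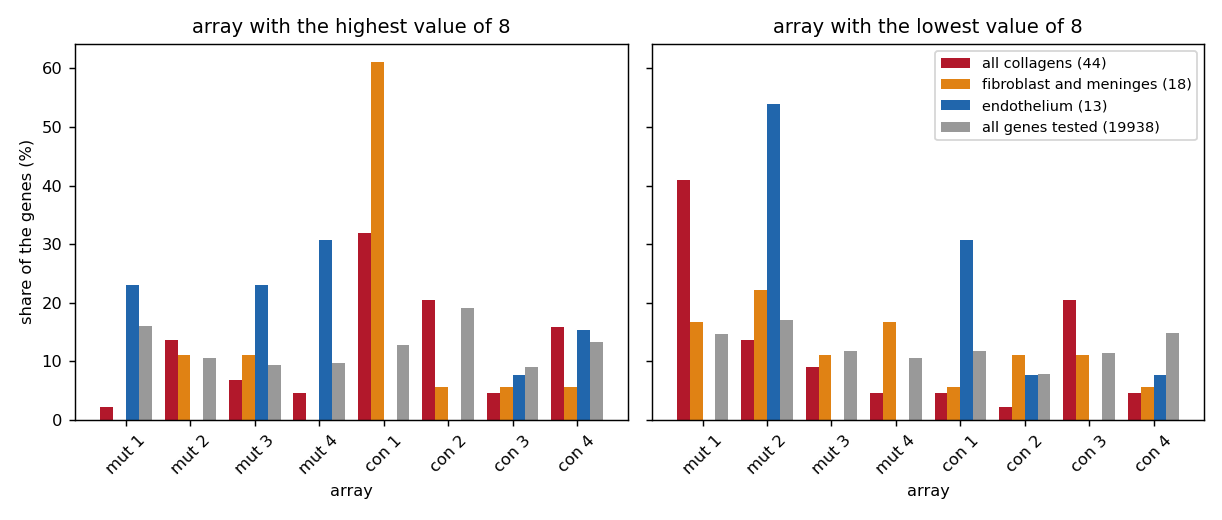
Share of genes (y axis, percent) for which each array (x axis, mutant left of control) held the highest (left panel) or the lowest (right panel) of the 8 values, for 44 collagens, 18 fibroblast and meningeal markers, 13 endothelial markers and all 19938 genes. Control replicate 1 is highest for 61.1% of the meningeal markers and 31.8% of collagens, mutant replicate 1 is lowest for 40.9% of collagens, and mutant replicate 2 is lowest for 53.8% of endothelial markers.

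Co-variation over the 8 arrays was examined in 12 pairs, with exact permutation tests adjusted over the pairs. By Pearson r only Col1a2 with Dcn passed, at 0.90 (exact permutation p = 0.0025, adjusted p = 0.0295). By Spearman rho it did not pass, at 0.83 (exact permutation p = 0.0154, adjusted p = 0.185). After each genotype mean was subtracted, r was 0.91. Without the 2 arrays farthest from the Col1a2 median, control replicate 1 and mutant replicate 3, r was 0.76 (exact permutation p = 0.111, 6 arrays). Without control replicate 1 alone r was 0.71 (exact permutation, adjusted p = 0.413). The call was also lost without mutant replicate 4 (r 0.88, adjusted p = 0.236), control replicate 3 (0.90, 0.0643) or control replicate 4 (0.90, 0.110), by the same exact test over 7 arrays.

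The pairs among Col1a1, Col1a2 and Col3a1 did not pass. Col1a1 and Col1a2 had r of 0.60 (exact permutation p = 0.121, adjusted p = 0.357; rho 0.36, p = 0.389), and r of -0.18 without control replicates 1 and 3. Col1a1 with Col3a1 gave r of 0.44 (rho 0.31) and Col1a2 with Col3a1 also 0.44 (rho 0.29), with an exact permutation adjusted p of 0.480 for both. Without the 2 farthest arrays these were 0.29 and 0.60. Control replicate 1 was highest for all 3 genes. Without it alone r was 0.066 for Col1a1 with Col1a2, 0.048 for Col1a1 with Col3a1 and -0.012 for Col1a2 with Col3a1.

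Col4a1 and Col4a2, despite their shared start region, had r of 0.37 (exact permutation p = 0.367, adjusted p = 0.551; rho 0.40, p = 0.327). Without the 2 arrays farthest from the Col4a1 median it was 0.0019, and when 1 array was left out it ranged from 0.16 (without control replicate 2) to 0.53. Col4a1 with Col18a1 gave r of 0.58 (adjusted p = 0.357, exact permutation; rho 0.71), 0.38 without the 2 farthest arrays and 0.36 without control replicate 2. Col6a1 with Col6a2 gave 0.25 (adjusted p = 0.808, exact permutation; rho 0.66), 0.10 without the 2 farthest arrays and 0.70 without mutant replicate 1.

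Across the classes, Col3a1 and Col4a1 ran in opposite directions, with r of -0.75 (exact permutation p = 0.0361, adjusted p = 0.217; rho -0.71, p = 0.0576). It was -0.76 with genotype means subtracted and -0.64 without the 2 farthest arrays. Col1a1 and Col1a2 had r with Col4a1 of -0.13 (rho 0.00) and -0.02 (rho 0.00), adjusted p 0.927 and 0.954 by exact permutation. Without the 2 farthest arrays these were -0.58 and -0.08. Col4a1 with the endothelial marker Cldn5 gave 0.07 (rho 0.19, adjusted p = 0.953, exact permutation) and with the pericyte receptor Pdgfrb 0.56 (rho 0.64, adjusted p = 0.357, exact permutation), or 0.26 and 0.42 without the 2 farthest arrays. The r with Pdgfrb was 0.30 without mutant replicate 3. Within a genotype there were only 4 arrays, too few for an r of their own.

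**Figure D5:**
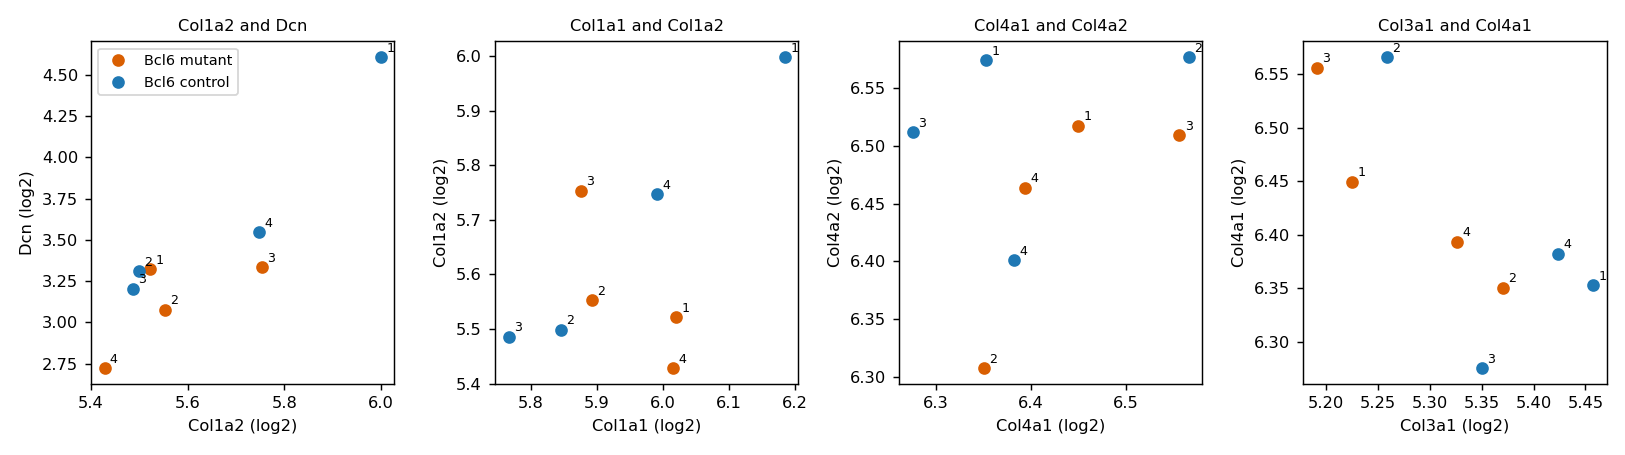
Deposited levels (log2, both axes) of 4 gene pairs, with a point per array, numbered by replicate, for 4 mutant and 4 control arrays. Control replicate 1 is the top right point of the Col1a2 and Dcn panel (r 0.90) and of the Col1a1 and Col1a2 panel (r 0.60), and the Col3a1 and Col4a1 panel slopes downward (r -0.75).

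Over all 946 pairs of collagens the median r was 0.24 and 8.14% of pairs had r above 0.7, beside 0.017 and 3.27% for all pairs of the 19938 genes. Among the 55 fibrillar pairs the median was 0.44, among the 28 basement membrane pairs 0.11 and between both classes 0.22. Without mutant replicate 1 the median was 0.16 over collagens and 0.23 over fibrillar pairs, and without mutant replicate 1 and control replicate 1 it was 0.12 and 0.17. These correlations share the same 8 arrays and are given as a description. The highest, chosen after the values were seen, was 0.96 between Col4a3 and Col5a2, and the lowest was -0.94 between Col14a1 and Col23a1.

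The genes whose profile over the arrays was most like the mean of Col1a1, Col1a2 and Col3a1, with genotype means subtracted, were sought among 9608 other genes of above-median level. The 10 nearest were H2-Ke6, Eps15l1, Pym1, Chst13, Adamts17, Snf8, Ptprcap, Polrmt, Kcnmb3 and Pex16, with r from 0.88 to 0.98. For the mean of Col4a1 and Col4a2 they were Elac2, Brsk2, Asxl1, Adar, Basp1, Mettl3, Tmem201, Mest, Rflna and Stim2, with r from 0.94 to 0.99. Of these 20 genes, 0 belonged to the matrix or cell type lists. Those lists hold only a small part of the 9608 genes, so this count says little. Only 2 of the 18 markers of fibroblasts and meninges lay above the median level. Genes outside the lists were not sorted by function. Meningeal genes such as Dcn, whose level is under the median of all genes, could not enter this search.

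The wider matrix machinery was read from 4 lists, and 0 of their members were called by limma, beside 0.0652% of all genes. Of 28 genes that process collagen chains, 13 differences were positive and 15 negative (median -0.0048). At an unadjusted p under 0.05, 1 of them was lower, beside 3.28% of all genes. Quantile normalization, median centring and cyclic loess each turned the split to 17 positive and 11 negative, with medians of 0.01, 0.01 and 0.01. That gene was Tll1, a tolloid-like protease (-0.28 ± 0.09), followed by P4ha3, a prolyl hydroxylase subunit (-0.15 ± 0.09), and Crtap, of the prolyl 3-hydroxylation complex (0.12 ± 0.08).

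Of 17 basement membrane partners, 13 were above 0 and 4 below, with a median of 0.05. Of the 8 basement membrane collagens 6 were below 0, or 5 after quantile normalization or cyclic loess. None of the partners reached an unadjusted p under 0.05 in limma, beside 4.91% of all genes. The members of smallest p were Lamb3 (-0.20 ± 0.10), Lama4 (0.16 ± 0.08) and Lamc3 (-0.19 ± 0.10), all laminin chains.

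Of 11 collagen receptors, 6 were above 0 and 5 below (median 0.01), and 4 above and 7 below without mutant replicate 1 (median -0.02). Itga2, an integrin subunit that binds collagen, was lower in all 4 mutants than in all 4 controls, as were 1.79% of all genes. Its difference was -0.16 ± 0.07 (limma unadjusted p = 0.0378, adjusted p = 0.990). Itga1 and Lair1 read 0.19 ± 0.10 and 0.22 ± 0.12. Of 15 matrix proteases and inhibitors, 10 were above 0 and 5 below (median 0.02), and 7 above and 8 below without mutant replicate 1 (median -0.01). Mmp14, a membrane-bound collagenase, read 0.17 ± 0.07 (limma unadjusted p = 0.0377, adjusted p = 0.990), Timp4 read 0.14 ± 0.08 and Mmp2 -0.12 ± 0.09.

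Markers of the other cells in the tissue gave 0 calls, beside 0.0652% of all genes. Median differences were 0.02 for astrocytes, -0.02 for microglia, 0.03 for the oligodendrocyte lineage, 0.02 for excitatory neurons, 0.01 for interneurons and -0.15 for the 2 red blood cell genes tested. The members of smallest p were Gfap (-0.11 ± 0.06), P2ry12 (-0.27 ± 0.10), Mbp (-0.10 ± 0.06), Slc17a7 (-0.15 ± 0.13), Gad2 (0.09 ± 0.09) and Slc4a1 (-0.20 ± 0.08), with limma adjusted p from 0.932 to 0.9995.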

How the data were processed

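Total RNA of 8 pups was hybridised to 1 Affymetrix Mouse Gene 1.0 ST array each. The deposited table gives log2 values for 35556 probe sets, made with BRB-ArrayTools per the labels. How background was corrected and arrays normalized and summarized is not stated in those labels. The log2 scale was read from the values, which run from 0.74 to 13.63. Detection calls were not used, and the number of arrays limits the precision.

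Of 23410 annotated probe sets 21789 named 1 gene, and 21698 of these matched the GRCm38.p6 gene table by identifier. The brightest probe set per gene gave 19938 genes. Mutant minus control was fitted with limma 3.58.1 in R 4.3.3 over all genes, with Benjamini-Hochberg adjustment and a threshold of 0.05. The fit was checked on simulated data with shifts larger than any collagen difference here, so its power for small differences was not tested. The labels describe separate pups. Replicate numbers were not treated as pairs.

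The members, lists and tests were chosen with earlier results of these data known. Values per array are given for 5 fixed genes (Col1a1, Col1a2, Col3a1, Col4a1, Col4a2), the 4 higher and 4 lower of smallest p, the 5 most variable and the 5 of highest level. Of other lists the 3 of smallest p are named. Dcn, Igf2, Lum, Ogn, Rorb and Cux2 were named as markers with their values known. Listed genes with no row were not analysed here. Alternatives were other scalings, a filter on dim genes, another prior, array weights, the replicate block, the mean of probe sets, a Y-linked covariate and leaving out arrays.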

Additional observations from a re-analysis of the deposited data

Results flagged for a closer look

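In 4 of 88 groups of 4 arrays (44 collagens, both genotypes), 1 array stood far from the other 3 by Dixon's test of the gap over the group's range. Chance flags about 1 in 20 groups, and 4.55% were flagged here. All 4 were low values. Col16a1 read 5.68 in mutant replicate 1, against 5.84 to 5.87 in the other mutants, and 5.79 in control replicate 3, against 5.92 to 5.94 in the other controls. Col6a2 read 5.53 in mutant replicate 1, against 5.84 to 5.89 in the other mutants. Col28a1 read 5.08 in control replicate 3, against 5.18 to 5.19 in the other controls.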

How the results depend on the processing

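The count of collagens called stayed at 0 under all 18 alternatives, the replicate block among them (0 called, with medians of -0.03 for fibrillar and basement membrane genes), which include 8 fits that left out 1 array each. At an unadjusted p under 0.05 in limma the count was 0 or, without mutant replicate 3, control replicate 3 or control replicate 4, 1 (lower). The deviations of same-numbered pups correlated at -0.01, 0.03, 0.04 and 0.16 for replicates 1 to 4, against at most 0.07, 0.07, 0.02 and 0.01 with another number, so 2 of 4 mutants correlated best with their own number, and the numbers were not taken as pairs. The median difference of fibrillar genes lay between -0.06 and -0.01 in those fits and between -0.03 and -0.02 under the others, and that of basement membrane genes between -0.07 and -0.01 and between -0.04 and -0.02. With genes above the median level only, 21 collagens were left. The difference of Col1a1 was -0.063 with the Y-linked covariate and -0.063 without mutant replicates 1 and 4, a setting chosen after seeing the data, and between -0.056 and 0.083 when 1 array was left out. Leaving out 1 array gave -0.00075 to 0.090 for Col23a1 and -0.031 to 0.128 for Col9a3. The pairs past the threshold numbered 1 over 8 arrays, 0 without the 2 farthest arrays and 0 to 1 when 1 array was left out. The r of Col1a1 with Col1a2 was -0.18 without the 2 farthest arrays. That of Col1a2 with Col4a1 was 0.028 after quantile normalization and 0.054 with genotype means subtracted, and that of Col4a1 with Cldn5 was -0.066 after quantile normalization. When 1 array was left out, r ranged from -0.012 to 0.76 for Col1a2 with Col3a1, -0.64 to 0.084 for Col1a1 with Col4a1, -0.23 to 0.29 for Col1a2 with Col4a1, -0.20 to 0.22 for Col4a1 with Cldn5 and 0.71 to 0.95 for Col1a2 with Dcn. The causes were not tested. With 4 arrays a group, the smallest difference that the adjusted test would call was not tested. The intervals given above are for each gene alone and are not detection limits of that test. Neurod6 differed by -0.39 (interval -0.59 to -0.19) and was not called (limma adjusted p = 0.535). Bcl6 differed by 0.37 (interval 0.16 to 0.59) and was not called either (limma adjusted p = 0.655). By itself, a count of 0 collagens called thus sets no bound on the differences. The 95% intervals of the collagens, each for its gene alone, lay between -0.49 (Col8a1) and 0.26 (Col9a3).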
